A study of Mus musculus with 6 samples.

Results

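The macrophage cytokine genes described here are 10 genes, namely Tnf, Il1a, Il1b, Il1rn, Il6, Il10, Il18, Il12b, Tgfb1 and Ptgs2. Each was read through all probe sets of the array whose platform annotation names 1 gene symbol that is among these 10, which gave 15 of the 45101 probe sets in the table, or 10 of the 18193 genes with such a probe set. They were measured in macrophages grown from the marrow of vimentin-deficient mice (3 arrays) and of wild-type littermates (3 arrays), 1 sample per Affymetrix Mouse Genome expression array. Both groups had a C57BL/6 background, an age of 17 weeks and a diet of rodent chow, and the labels call the samples biological replicates. Femoral marrow of both groups was grown at normal oxygen in high-glucose medium with supernatant of CMG14-12, a cell line that secretes mouse M-CSF, the growth factor that drives marrow cells to become macrophages. The labels name neither an inflammatory stimulus nor the allele of the vimentin deficiency. The series concerns vimentin in marrow-derived cells during atherosclerosis, and the comparison here asks whether cytokine transcripts of cultured macrophages differ with vimentin.

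Macrophages make tumour necrosis factor and interleukin-1 early after a microbial or danger signal, and interleukin-6 and interleukin-12 follow. Many of these genes are nearly silent in resting cells and are switched on by NF-kappaB and AP-1 transcription factors, while their mRNAs are short-lived. Interleukin-10, transforming growth factor beta and the interleukin-1 receptor antagonist restrain the response, and prostaglandin synthase 2 makes the precursor of inflammatory prostaglandins. In atherosclerotic plaques, interleukin-1 and tumour necrosis factor from macrophages act on the vessel wall.

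The bases just before the transcription start are shown for members of both kinds, those usually induced from a low level and those present in resting macrophages. RefSeq (GRCm38.p6) gave promoters for 9 of the 10 genes, 8 of them with a single start, and Il1rn with 3. The stretches below are the 60 bases before the start, read 5′ to 3′ on the gene's strand. Capitals mark TATANA or its reverse complement, the letters of a TATA box, searched on both strands.
Tnf, chr17:35202008-35202067, minus strand: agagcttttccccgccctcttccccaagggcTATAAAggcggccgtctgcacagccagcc
Il1a, chr2:129309973-129310032, minus strand: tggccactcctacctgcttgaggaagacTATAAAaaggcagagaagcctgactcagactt
Il1b, chr2:129371140-129371199, minus strand: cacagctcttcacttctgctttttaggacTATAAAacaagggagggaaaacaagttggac
Il12b, chr11:44400003-44400062, plus strand: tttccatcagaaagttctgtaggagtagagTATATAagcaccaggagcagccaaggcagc
Il18, chr9:50554640-50554699, plus strand: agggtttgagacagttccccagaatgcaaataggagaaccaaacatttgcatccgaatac
Tgfb1, chr7:25686942-25687001, plus strand: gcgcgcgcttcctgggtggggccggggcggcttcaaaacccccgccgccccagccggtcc
The motif stood 29 bases before the start in Tnf, 31 in Il1b, 32 in Il1a and 30 in Il12b, counted from its first base. It was not found in these 60 bases of Il18, Tgfb1, Il6 or Ptgs2, nor at the 3 starts of Il1rn. Il6 and Ptgs2 are induced genes too, so the printed stretches do not stand for every member of each kind. The motif was held by 6.43% of all 32851 promoters of the table. In the 250 bases before the start, G and C made up 75.2% in Tgfb1, 35.6% in Il18, 57.6% in Tnf and 44.4% in Il1b, against a median of 52.4% over all promoters. The kappa-B consensus, searched on both strands of those 250 bases, was found in Il6 and Tgfb1 among the 8 genes with 1 start and in 7.25% of all promoters. These matches describe letters only.

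Some facts of the whole series bear on every value below. Vim checked the labels, since its brightest probe set read 8.20, 6.96 and 7.13 on the vimentin-deficient arrays and 13.41, 13.24 and 13.31 on the wild-type arrays (log2 units). Vimentin-deficient replicate 3 stood apart, correlating at 0.975 to 0.979 with the other arrays across probe sets, where the other 5 correlated at 0.992 to 0.998 with each other, so differences are given with and without it. All 8 measured macrophage markers were above background, and their summed signal ranged from 15.67 to 15.99 on vimentin-deficient and from 15.66 to 15.79 on wild-type arrays (log2 of the sum). One of them, Cd14, which encodes a co-receptor for bacterial lipopolysaccharide, read 12.76, 12.59 and 13.16 in vimentin-deficient and 12.01, 12.12 and 12.12 in wild-type cells. Cd14 had a difference of 0.75 on the log2 scale (SE 0.14, limma adjusted p = 0.347) with 6 arrays. Without vimentin-deficient replicate 3, its highest array, the difference was smaller but Cd14 was called higher in vimentin-deficient cells (0.59, SE 0.075, limma adjusted p = 0.00352). The other macrophage markers did not pass without that array. Mertk (-0.46), Adgre1 (-0.25), Lyz2 (-0.15), Csf1r (-0.14) and Cd68 (-0.11) were then lower, and Itgam (0.20) and Fcgr1 (0.15) higher. Of 33 measured markers of 9 other cell types 9 were above background, and those under the filter given below were not tested. Among the tested ones 0 were called different between the genotypes with 6 arrays or without that array. In the same fits 0.0223% and 1.93% of all tested genes were called. The mast cell list had the widest summed range, 8.39 to 9.50 on vimentin-deficient against 9.12 to 9.20 on wild-type arrays. Its marker above background, Kit, read 9.05, 8.68 and 7.20 in vimentin-deficient and 8.52, 8.63 and 8.64 in wild-type cells, lowest on replicate 3. Of the others above background, 3 were T cell markers (Cd3e, Cd4 and Cd8a). Cd4 was lower in vimentin-deficient cells (-0.33 with 6 arrays, -0.35 without replicate 3, limma adjusted p = 0.454 and 0.0866). The endothelial marker Kdr was higher in the same fits (0.20 and 0.33, limma adjusted p = 0.761 and 0.0595). The part of these markers in the results below was not tested. In RNA of a whole culture, fewer cells that make a transcript and less of it per cell cannot be told apart.

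In 5 of the 10 genes no probe set stood clear of background in these cells. Background was read from 44 probe sets of olfactory receptor genes, which macrophages are not known for expressing, and whose mean values had a 5th percentile of 6.02, a median of 6.70 and a 95th percentile of 7.66 on the log2 scale. Probe sets differ in their own background, so this range is a rough guide, and it does not rank genes against each other. Only Tnf, Il1rn, Il18, Il12b and Tgfb1 had a probe set above the 95th percentile, while Il1a, Il1b, Il6, Il10 and Ptgs2 had none. Only probe sets whose mean over the 6 arrays reached 6.93, the 40th percentile after control probe sets were left out, entered the test. Of the 15 member probe sets 10 passed, from 7 genes, and the 5 others lay between 5.80 and 6.49. Of the 10 tested, Il1b and Il10 did not exceed the olfactory 95th percentile, and Tnf, Il12b, the weaker Tgfb1 probe set and the weakest Il1rn probe set exceeded it without exceeding the brightest olfactory probe set, 8.31.

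**Figure D1:**
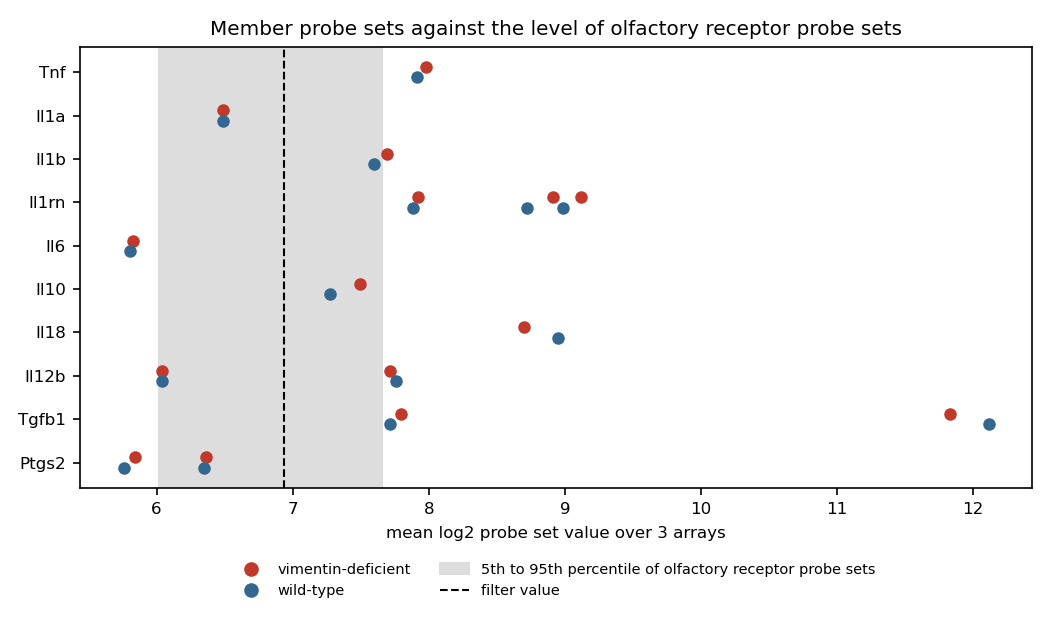
Mean log2 value of each member probe set over 3 vimentin-deficient arrays (red) and 3 wild-type arrays (blue), beside the 5th to 95th percentile of 44 olfactory receptor probe sets (grey, 6.02 to 7.66) and the filter value of 6.93 (dashed). Il1a, Il6 and Ptgs2 lie left of the filter value in both genotypes, and 1 Tgfb1 probe set, both brighter Il1rn probe sets and Il18 lie farthest right of the grey band. Tnf, the tested Il12b probe set, the dimmer Tgfb1 and the dimmest Il1rn probe set lie closer to its right edge, outside it in both genotypes.

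None of the 10 tested member probe sets passed the comparison of the genotypes. With limma across 27022 probe sets and Benjamini-Hochberg adjustment, 0 of 10 were called at an adjusted p below 0.05, where 0.0185% of all tested probe sets were called (5, all lower in vimentin-deficient cells, 3 of them Vim). The adjusted p of the members ran from 0.487 to 0.948. At an unadjusted p below 0.05 there was 1 of 10, against 7.19% of all tested probe sets. The 95% intervals of the members reached from -0.58 to 0.53 log2 units at the widest. Signal differences larger than 1.5-fold lower or 1.45-fold higher thus lay outside the interval of every tested member. The smallest p of an exact two-sided permutation test with 3 against 3 arrays is 0.10, so single probe sets were judged by limma alone.

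**Figure D2:**
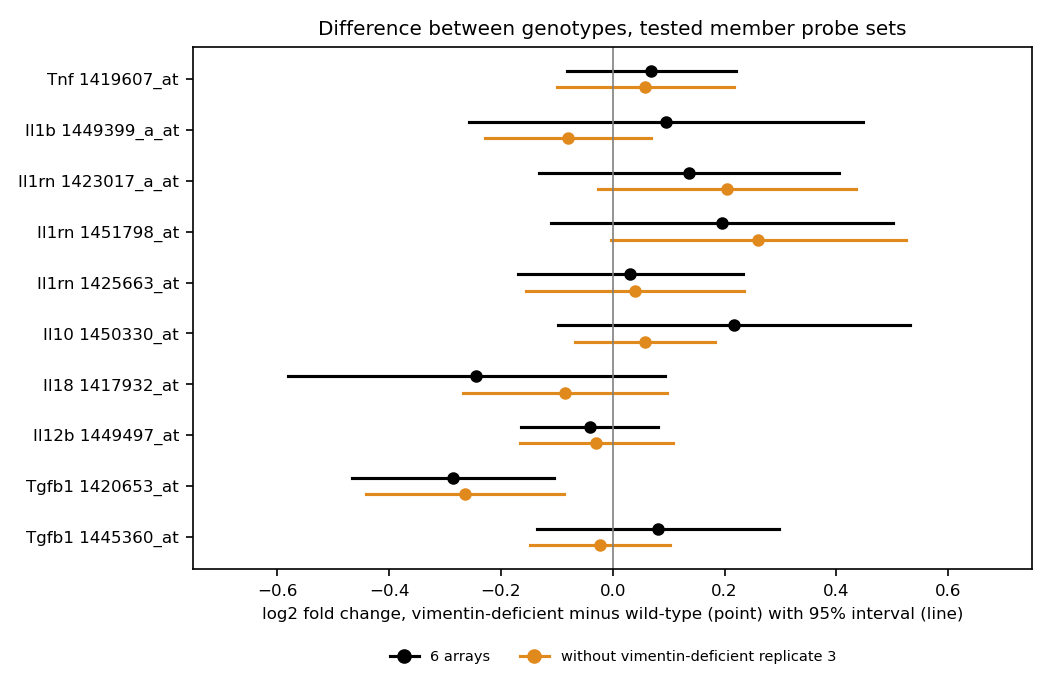
Log2 fold change, vimentin-deficient minus wild-type (points), with its 95% interval (lines) for the 10 tested member probe sets, from 6 arrays (black) and without vimentin-deficient replicate 3 (orange). Only the interval of the brighter Tgfb1 probe set excludes 0, in both fits, and its adjusted p was 0.487 and 0.165.

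Tnf encodes tumour necrosis factor, the first cytokine that activated macrophages release. Its probe set read 8.01, 7.93 and 8.0 in vimentin-deficient macrophages and 8.02, 7.87 and 7.85 in wild-type macrophages. The groups overlapped, since wild-type replicate 1 was the highest of the 6 arrays. The log2 fold change was 0.069 (SE 0.064, 95% interval -0.082 to 0.22, limma adjusted p = 0.832), and 0.058 without vimentin-deficient replicate 3. A rise of the Tnf probe set signal beyond 1.17-fold lay outside the interval of the 6 arrays, though dim signal can compress folds.

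Il1a and Il1b encode the agonists of the interleukin-1 receptor. Il1b is made as a precursor that caspase-1 cuts, and Il1a is active without that cut. Il1b read 7.45, 7.57 and 8.04 on vimentin-deficient arrays 1 to 3 and 7.63, 7.64 and 7.51 on the wild-type arrays. Only vimentin-deficient replicate 3 stood above the wild-type arrays, and replicate 1 stood below them all. The log2 fold change was 0.096 (SE 0.15, 95% interval -0.26 to 0.45, limma adjusted p = 0.906) with 6 arrays and -0.080 (SE 0.066, limma adjusted p = 0.717) without replicate 3, so its sign rested on that array. Il1a, under the filter, read 6.46 to 6.50 in vimentin-deficient and 6.42 to 6.56 in wild-type cells.

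Il18, an interleukin-1 family cytokine whose precursor resting macrophages store, was the member with the widest range over the 6 arrays, 0.65 log2 units. It read 8.84, 8.88 and 8.39 in vimentin-deficient and 8.95, 8.86 and 9.03 in wild-type macrophages. Replicate 3 alone lay well below the others, 0.48 below the mean of vimentin-deficient replicates 1 and 2, while replicates 1 and 2 lay close to the lowest wild-type array. The difference, on the log2 scale, was -0.24 (SE 0.14, 95% interval -0.58 to 0.093, limma adjusted p = 0.760) and became -0.086 (SE 0.082, limma adjusted p = 0.771) without that array. The genes whose 6 values followed Il18 most closely were Bin1 (Pearson r = 0.996), Dmac1 (0.994) and Trmt10b (0.994). Of 12613 genes compared, 855 (6.78%) had an r above 0.9 with Il18. All these points share the same 6 arrays, including the low one.

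Il12b encodes the p40 chain shared by interleukins 12 and 23, and Il6 encodes interleukin-6, both late products of induced macrophages. The tested Il12b probe set read 7.71, 7.74 and 7.69 in vimentin-deficient and 7.75, 7.82 and 7.70 in wild-type cells, with overlap. Its log2 fold change of -0.041 had the narrowest interval of the members, -0.16 to 0.081 (SE 0.051, limma adjusted p = 0.880), and was -0.029 without vimentin-deficient replicate 3. The second Il12b probe set was near background at 6.00 to 6.11 in vimentin-deficient and 6.01 to 6.08 in wild-type cells. Il6 was near background too, at 5.78, 5.90 and 5.80 in vimentin-deficient and 5.88, 5.70 and 5.84 in wild-type macrophages. Its mean over the 6 arrays exceeded 2.27% of the olfactory receptor probe sets.

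Il1rn encodes the receptor antagonist that occupies the interleukin-1 receptor without signalling, and 3 probe sets measured it. The brightest read 9.22, 9.16 and 8.99 in vimentin-deficient and 9.13, 8.79 and 9.03 in wild-type macrophages. The second read 9.01, 8.95 and 8.79 in vimentin-deficient and 8.97, 8.52 and 8.66 in wild-type macrophages. On both, vimentin-deficient replicate 1 was the highest array and wild-type replicate 2 the lowest, and the groups overlapped. Their log2 fold changes were 0.14 (SE 0.11, limma adjusted p = 0.811) and 0.20 (SE 0.13, limma adjusted p = 0.775). Without vimentin-deficient replicate 3 they were 0.20 (SE 0.10, limma adjusted p = 0.461) and 0.26 (SE 0.12, limma adjusted p = 0.396), and that array read below replicates 1 and 2 on both. The dimmest had 0.032 (SE 0.085, limma adjusted p = 0.948), and 0.040 without that array, with 7.98, 7.87 and 7.90 in vimentin-deficient and 8.03, 7.73 and 7.90 in wild-type cells. Wild-type replicate 2 was the lowest array on all 3 probe sets.

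Il10 encodes interleukin-10, which turns macrophage activation down. It read 7.32, 7.34 and 7.81 in vimentin-deficient and 7.22, 7.27 and 7.34 in wild-type macrophages. Replicate 3 stood 0.48 above the mean of vimentin-deficient replicates 1 and 2, which lay at the upper end of the wild-type arrays. The log2 fold change was 0.22 (SE 0.13, 95% interval -0.097 to 0.53, limma adjusted p = 0.766) with 6 arrays and 0.057 (SE 0.056, limma adjusted p = 0.781) without that array.

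Tgfb1, which encodes transforming growth factor beta 1, a growth and matrix regulator that dampens inflammation, had the smallest p of the members. Its brighter probe set read 11.80, 11.90 and 11.79 in vimentin-deficient macrophages and 12.04, 12.08 and 12.23 in wild-type macrophages. All 3 vimentin-deficient arrays lay below all 3 wild-type arrays, the only tested member probe set without overlap, where 8.91% of all tested probe sets lay wholly lower and 5.92% wholly higher. Vimentin-deficient cells averaged 11.83 ± 0.064 and wild-type cells 12.11 ± 0.098 (SD, n = 3 each), or -0.29 on the log2 scale (SE 0.076, 95% interval -0.47 to -0.11, 1.22-fold). This did not pass the adjustment (limma adjusted p = 0.487). It did not rest on the array that stands apart, since without vimentin-deficient replicate 3 the log2 fold change was -0.26 (SE 0.079, limma adjusted p = 0.165), and over the 6 fits that each left out 1 array it lay between -0.32 and -0.23. The second Tgfb1 probe set differed in sign. It read 7.68, 7.70 and 8.0 in vimentin-deficient and 7.70, 7.71 and 7.73 in wild-type cells, and the log2 difference of 0.081 (SE 0.091, limma adjusted p = 0.866) became -0.023 without replicate 3. The genes whose 6 values followed the brighter Tgfb1 probe set most closely were Slc37a4 (Pearson r = 0.998), Thnsl1 (0.992) and Ephb1 (0.991), and 306 of 12613 genes (2.43%) had an r above 0.9 with it. Thnsl1 read 7.04 to 7.33 and Ephb1 6.93 to 7.05, below the olfactory 95th percentile. They were picked from all 12613 genes on the same 6 arrays.

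Ptgs2, the inducible cyclooxygenase and target of anti-inflammatory drugs, was near background on both of its probe sets. On the brighter it read 6.34 to 6.38 in vimentin-deficient and 6.32 to 6.37 in wild-type cells. On the dimmer it read 5.92, 5.78 and 5.83 in vimentin-deficient and 5.78, 5.74 and 5.75 in wild-type cells. It was the 1 member probe set under the filter without overlap, where 5.92% of all tested probe sets lay wholly higher. That share was not counted among probe sets under the filter. In a fit of all 45037 non-control probe sets, the log2 fold change of this dimmer probe set was 0.087 (SE 0.039, limma adjusted p = 0.743), or 0.094 without vimentin-deficient replicate 3. The log2 fold changes of the 5 probe sets under the filter ran from -0.0039 to 0.087 with 6 arrays. Values this close to background do not show that a transcript is absent, and how well these probe sets detect their transcripts was not tested.

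**Figure D3:**
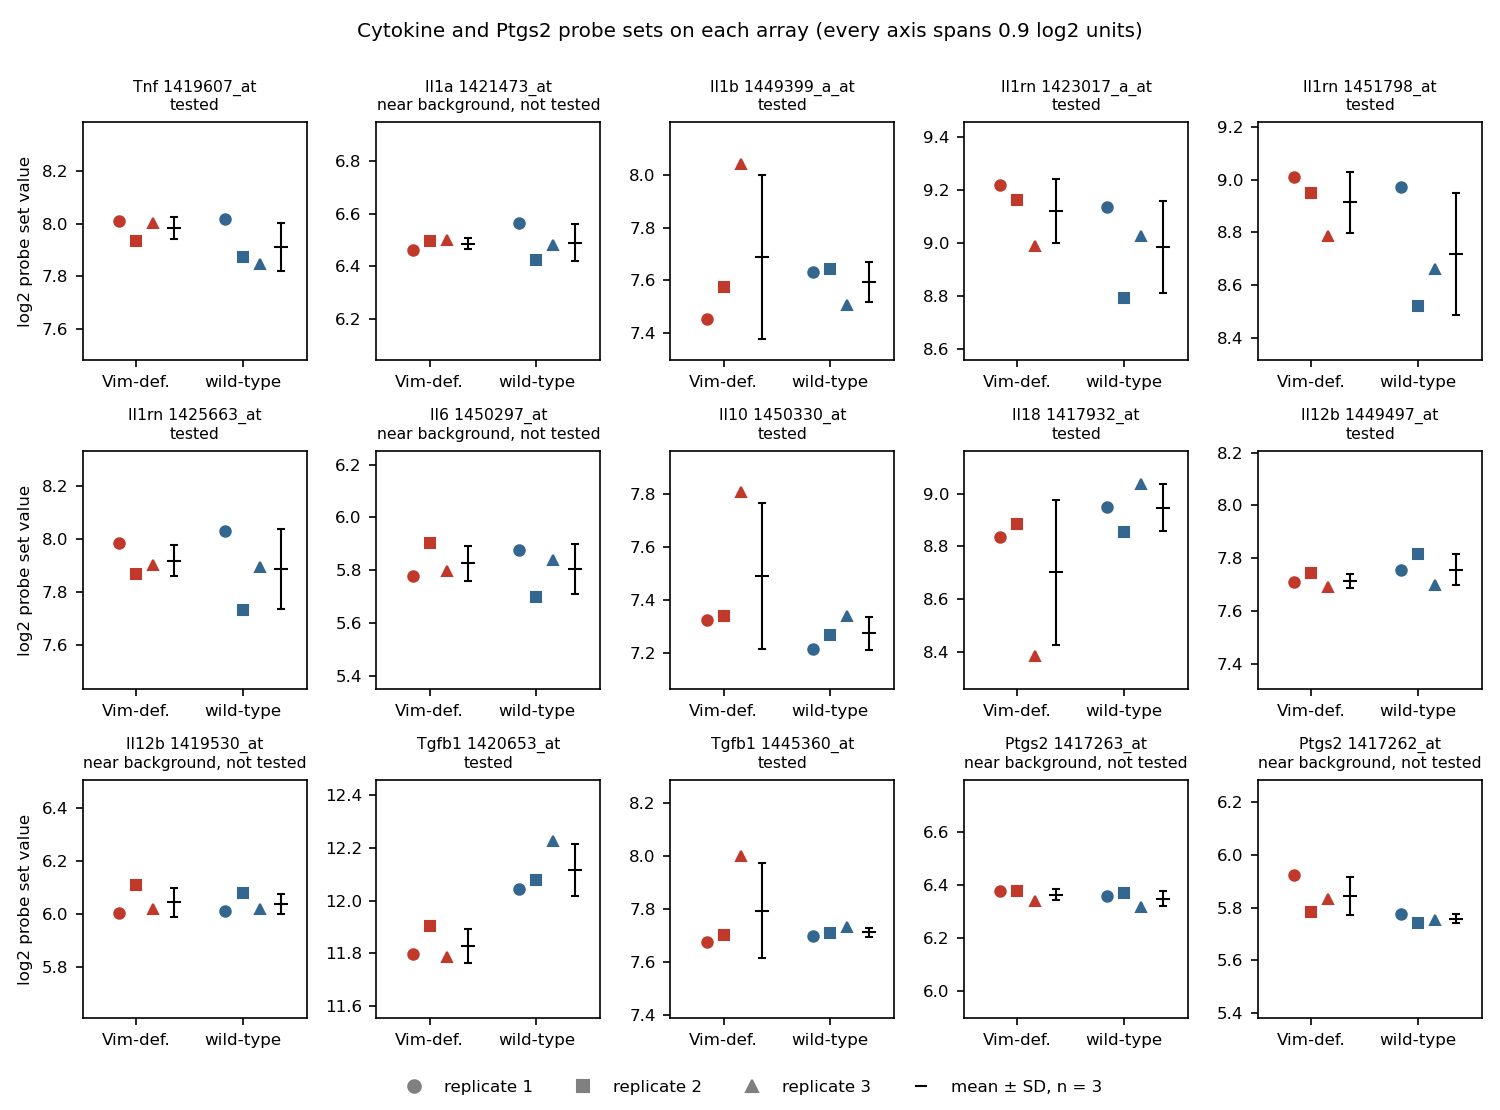
Log2 value of each of the 15 member probe sets on the 3 vimentin-deficient arrays (red, left) and the 3 wild-type arrays (blue, right), with symbols for the replicate number and the mean ± SD (n = 3) in black; every panel has the same span. Vimentin-deficient replicate 3 (red triangle) stands away from the other arrays for Il1b, Il10, Il18 and the dimmer Tgfb1 probe set, and the groups separate for the brighter one.

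The tested members differed in both directions, none past the test. Their median log2 fold change was 0.075, with 7 of 10 higher in vimentin-deficient cells, where the median of all tested probe sets was -0.013 and 43.9% were higher. Leaving out vimentin-deficient replicate 3 gave a median of 0.0089 and 5 of 10 higher, against -0.0074 and 46.6% over all tested probe sets. The median range over the 6 arrays was 0.43 log2 units for the members and 0.26 for all tested probe sets. Replicate 3 was the highest or lowest array for 6 of 10 members, close to the 58.4% of all tested probe sets. It was highest for Il1b, Il10 and the dimmer Tgfb1 probe set (25.9% of all tested probe sets), and lowest for Il18, the tested Il12b probe set and the brighter Tgfb1 probe set (32.5%). Without that array 0 of 10 members were called (lowest limma adjusted p = 0.165) and 1 of 10 had an unadjusted p below 0.05, where 1.64% of all tested probe sets were called and 12.9% had such a p.

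The genes around these cytokines were taken from 6 lists of receptors, processing factors, prostaglandin enzymes, mRNA decay factors, feedback regulators and other cytokines. Of their 81 genes 76 were measured and 63 tested, each by its brightest probe set. With 6 arrays 0 of 63 were called, where 0.0223% of 13445 tested genes were, and 6 had an unadjusted p below 0.05, where 7.57% of genes did. In 13 of 63 the groups did not overlap, as in 15.5% of genes. Without vimentin-deficient replicate 3, 5 were called, where 1.93% of genes were: 2 were higher (1.08% of genes) and 3 lower (0.855%). An unadjusted p below 0.05 was then found in 14 of 63, where 13.5% of genes had one.

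Of 13 tested receptor genes 9 had lower and 4 higher means in vimentin-deficient cells (median log2 fold change -0.061, against -0.023 over all tested genes, 39.6% of which had a higher mean), and 0 passed with 6 arrays. Without vimentin-deficient replicate 3 the receptor median was -0.16, again with 4 higher, against -0.013 over all tested genes, 44.5% of which were then higher. Tnfrsf1b, which encodes the second tumour necrosis factor receptor, read 9.61, 9.78 and 10.94 in vimentin-deficient and 10.09, 10.63 and 10.48 in wild-type macrophages. Vimentin-deficient replicates 1 and 2 lay below all wild-type arrays and replicate 3 above them all. Its log2 fold change was -0.29 (SE 0.35, limma adjusted p = 0.879) with 6 arrays, and it fell without replicate 3 (-0.70, SE 0.14, 1.63-fold, limma adjusted p = 0.0411). A second probe set of Tnfrsf1b had -0.48 without that array and did not pass (limma adjusted p = 0.150). Il10rb, a chain of the interleukin-10 receptor, had -0.18 (SE 0.063, limma adjusted p = 0.618), and -0.16 without that array. Il18rap, a chain of the interleukin-18 receptor, had 0.12 (SE 0.043), and 0.095 without it. The mean of Il18rap, 7.23, did not exceed the olfactory 95th percentile.

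Among 10 tested genes of prostaglandin and thromboxane metabolism 0 passed with 6 arrays, and 4 had higher and 6 lower means (median -0.0060). Without vimentin-deficient replicate 3, 2 were called and 2 of 10 had higher means (median -0.071). Tbxas1, thromboxane synthase, which uses the product of the cyclooxygenases, read 10.50, 10.52 and 10.56 in vimentin-deficient and 10.91, 10.87 and 10.98 in wild-type macrophages. The groups did not overlap, and replicate 3 lay with replicates 1 and 2. The log2 fold change was -0.39 (SE 0.072, limma adjusted p = 0.341) with 6 arrays, and Tbxas1 fell without replicate 3 (-0.41, SE 0.081, 1.33-fold, limma adjusted p = 0.0346). Pla2g4a, the phospholipase that frees arachidonic acid, read 10.13, 9.71 and 8.83 in vimentin-deficient and 9.31, 8.86 and 8.97 in wild-type cells, and rose without replicate 3 (0.87, SE 0.15, 1.83-fold, limma adjusted p = 0.0178), the array on which it lay below the wild-type arrays. With 6 arrays it had 0.51 (SE 0.32). Hpgds, a prostaglandin D synthase, had -0.14 (SE 0.084), and -0.13 without replicate 3.

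**Figure D4:**
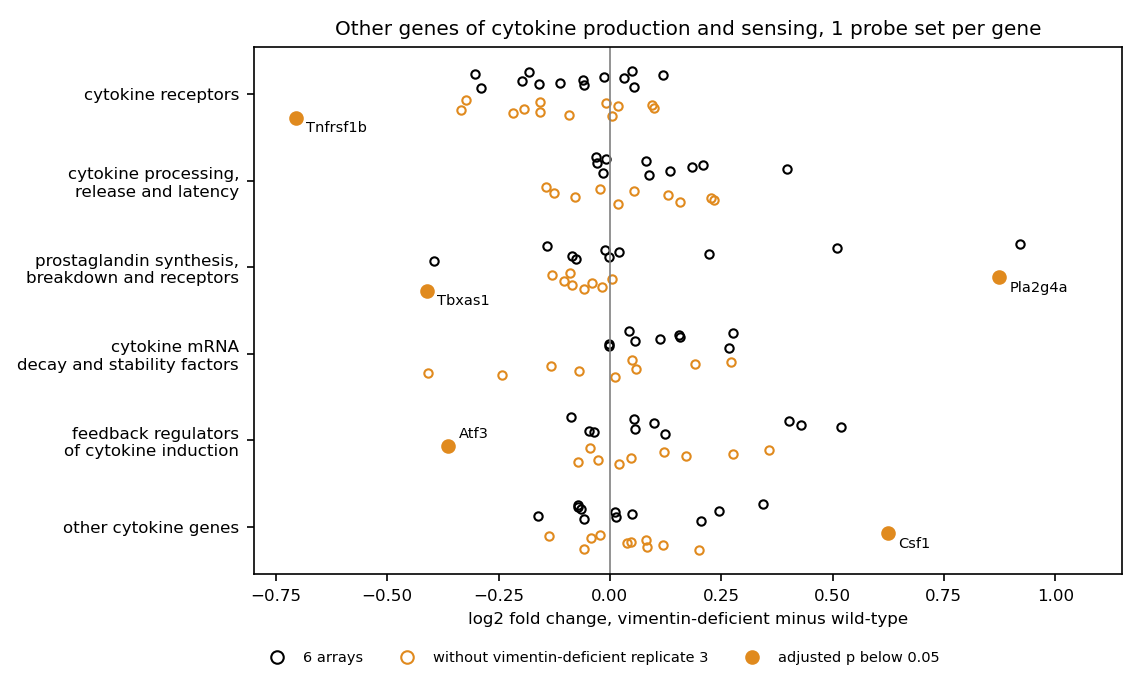
Log2 fold change, vimentin-deficient minus wild-type, of each tested gene of the 6 lists, with 6 arrays (black) and without vimentin-deficient replicate 3 (orange); filled points have an adjusted p below 0.05. The 5 filled points are Tnfrsf1b, Tbxas1 and Atf3 to the left of 0 and Pla2g4a and Csf1 to its right, all in the fit without that array.

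In the other 4 lists 0 genes passed with 6 arrays. Csf1, which encodes M-CSF itself, read 9.64, 9.38 and 8.67 in vimentin-deficient and 8.88, 8.98 and 8.81 in wild-type macrophages, and rose without replicate 3 (0.62, SE 0.098, 1.54-fold, limma adjusted p = 0.0106). Its 3 other tested probe sets were all higher in that fit, and 1 of them passed (0.49, limma adjusted p = 0.00799). With 6 arrays the brightest had 0.34 (SE 0.23, limma adjusted p = 0.777). Atf3, a repressor of cytokine genes, read 11.11, 11.19 and 11.98 in vimentin-deficient and 11.47, 11.54 and 11.52 in wild-type cells, and fell without replicate 3 (-0.36, SE 0.076, limma adjusted p = 0.0462), where 6 arrays gave -0.086 (SE 0.22). For both genes replicate 3 lay on the other side of the wild-type mean from replicates 1 and 2. Nfkbia, the NF-kappaB inhibitor induced by NF-kappaB, read 10.96, 11.04 and 11.46 in vimentin-deficient and 10.75, 10.76 and 10.66 in wild-type cells, without overlap, and had 0.43 (SE 0.14, limma adjusted p = 0.606). Replicate 3 was the highest array, and without it the difference was 0.28 (SE 0.082, limma adjusted p = 0.158). Dusp1, a phosphatase that ends MAP kinase signalling, had 0.40 (SE 0.15), and 0.36 without that array. Of 10 tested feedback regulators 7 had higher means with 6 arrays (median 0.078) and 6 without replicate 3 (median 0.034).

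Of 10 tested processing, release and latency genes 6 had higher means both with 6 arrays (median 0.085) and without vimentin-deficient replicate 3 (median 0.036). Itgav, an integrin chain that can release latent transforming growth factor beta, had 0.40 (SE 0.17, limma adjusted p = 0.697) with 6 arrays and 0.23 (SE 0.11) without that array. Gsdmd, the pore through which interleukin-1 leaves the cell, had 0.21 (SE 0.095) with 6 arrays and 0.13 (SE 0.083) without it. Of 9 tested mRNA decay and stability genes 7 had higher means with 6 arrays (median 0.11), and 5 without replicate 3 (median 0.011). Hnrnpd had 0.28 (SE 0.12) with 6 arrays and 0.27 without that array, and Khsrp, which promotes decay of AU-rich mRNAs, had 0.16 (SE 0.083) and 0.19 in the same fits. Of 11 other tested cytokine genes 6 had higher means with 6 arrays (median 0.012) and 7 without replicate 3 (median 0.048). Tnfsf13b, which encodes the B cell factor BAFF, had 0.20 in both fits (SE 0.058 and limma adjusted p = 0.542 with 6 arrays). Its mean of 7.26 did not exceed the olfactory 95th percentile. Il15 read 8.49, 8.51 and 8.99 in vimentin-deficient and 8.38, 8.41 and 8.47 in wild-type cells, and its difference of 0.24 (SE 0.14) became 0.081 (SE 0.069) without replicate 3, its highest array. Of the 16 genes named from the 6 lists, 6 had further tested probe sets, and 2 of those 13, for Il10rb and Khsrp, differed in sign from the brightest with 6 arrays.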

How the data were processed

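The authors deposited log2 probe set values of 6 Affymetrix arrays; how these were summarised and normalized was not given in the sources used here. The values ran from 5.43 to 14.50 with array medians between 7.23 and 7.25, and were used as deposited. After leaving out 64 control probe sets, the 27022 with a mean at or above the 40th percentile were fitted in R 4.3.3 by limma 3.58.1 (lmFit, eBayes with a mean-variance trend, no covariate), p-values adjusted by Benjamini-Hochberg over all of them. SEs and intervals use limma's moderated variance, and SDs are between arrays. The number of arrays limits the precision. List genes were matched by the Entrez ID to RefSeq symbols (34741 of 34945 probe sets with 1 symbol); Lrrc32, Ptgs1, Ptges3, Il27 and Il19 are not analysed here.

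The members and lists were chosen with earlier results of these data known. From each list the text names the 2 genes with the smallest p and any called gene, and beside Il18 (widest range) and Tgfb1 (smallest p) the 3 genes most correlated with them. The procedure was tested on simulated data for 6 arrays, with variances drawn from the fitted model and no array that stands apart. It recovered 53.7% of 1.5-fold and 95.5% of 2-fold changes there, and called 9 unchanged probe sets. These shares need not hold for the real arrays. Alternatives covered the filter, 1 probe set per gene, normalization, the variance model, array weights, the replicate number as a block, the threshold and leaving out each array.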

Additional observations from a re-analysis of the deposited data

How the results depend on the processing

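Under every alternative run 0 member probe sets were called, with a lowest adjusted p of 0.165 for any member, and 7 of the 10 tested members kept their sign throughout. The others were small values. Il1b had -0.028 with array quality weights (0.223 for vimentin-deficient replicate 3), -0.080 with no filter and without that replicate, a setting chosen after seeing the data, and -0.080 to 0.21 with each array left out in turn. The dimmer Tgfb1 probe set had -0.0019, -0.023 and -0.023 to 0.14 under the same settings, and the dimmest Il1rn probe set had -0.046 to 0.10 with each array left out. The members' median was 0.022 with array weights, 0.032 with no filter, 0.027 with no filter and without replicate 3, and 0.0089 to 0.11 with each array left out. Over all probe sets the 5 calls became 3 with 1 probe set per gene, 3 without the variance trend and 76 with array weights. They became 0 with the replicate block and ranged from 0 to 444 with each array left out. The count was 444 without vimentin-deficient replicate 3 (533 with no filter), 4 without replicate 1, and 0 without replicate 2 or any one wild-type array. Runs with 0 calls missed Vim as well, so the lack of member calls in those runs is uninformative. Genes of the 6 lists called ranged from 0 to 5, the 5 without vimentin-deficient replicate 3 (6 with no filter, which adds Ptger3). Same-numbered arrays correlated at 0.43, -0.15 and 0.036 in their deviations from the group means. The deviations within a group sum to 0 and are not independent, so these values cannot tell whether the numbers pair the arrays. The cause of these shifts was not tested. Dim signal can compress folds of members near background.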

Other observations

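Hpgd, the dehydrogenase that inactivates prostaglandins, was singled out after its values were seen. It read 7.75, 7.84 and 10.83 in vimentin-deficient and 7.29, 8.26 and 8.11 in wild-type macrophages, and the log2 difference of 0.92 (SE 0.81, limma adjusted p = 0.820) became -0.091 without vimentin-deficient replicate 3. Il18bp, which encodes the protein that neutralises interleukin-18 and was chosen in the same way, read 7.71, 7.92 and 8.60 in vimentin-deficient and 7.77, 7.96 and 7.95 in wild-type cells. On replicate 3 Il18bp was the highest and Il18 the lowest of the 6 arrays. Neither was tested on that array alone.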
